A study of Mus musculus with 4 samples.

Results

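The nuclear genes of oxidative phosphorylation encode most subunits of the 5 enzyme complexes of the inner mitochondrial membrane. In the deposited table of 1000 genes they were taken by symbol: names starting with Nduf, Sdh, Uqcr, Cox followed by a digit, or Atp5, together with Cyc1 and Cycs. This gave 68 genes, 31 of complex I, 4 of complex II, 9 of complex III, 10 of complex IV, 13 of complex V and the cytochrome c gene Cycs. All libraries came from frozen tibialis anterior, a fast muscle of the lower leg, of mice of the Dmd Dup2 genotype, a model of Duchenne muscular dystrophy with a duplication of dystrophin exon 2. The untreated controls carry the same duplication as the treated mice, which had received scAAV9.U7-ACCA, an adeno-associated virus of serotype 9 that carries an exon-skipping U7 small nuclear RNA. RNA-Seq libraries of total RNA, called mRNA here, and libraries of ribosome footprints, the fragments of mRNA that ribosomes shield from nuclease, were made for each, so there were 4 libraries and 1 library per group. Background strain, sex, age, vector dose, time after treatment and the number of animals per library are not given in the labels, and no healthy muscle was analysed here.

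Complex I takes electrons from NADH and complex II from succinate. Both pass them through ubiquinone to complex III, from which the small carrier cytochrome c takes them to complex IV, which reduces oxygen. Complexes I, III and IV pump protons, and complex V, the ATP synthase, lets the protons back and makes ATP. Every complex but II also holds subunits encoded in mitochondrial DNA. Within a complex a few core subunits carry the chemistry, and many small accessory subunits stabilise it. Skeletal muscle relies on this pathway most in slow and fast oxidative fibres and least in fast glycolytic fibres.

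The listed genes held 125236 reads in untreated mRNA, 4248818 in treated mRNA, 3349015 in untreated footprints and 1664122 in treated footprints. Medians for the oxidative phosphorylation genes were 49.5, 946.5, 1118 and 623.5 reads, again by library, so the untreated mRNA library sets the precision. The table is sorted by the reads in that library, with a lowest count there of 14, and a subunit gene low in untreated mRNA and high in treated mRNA would be missing. Of 15 skeletal muscle markers 14 were listed, among them Ckm, Acta1 and Myh4, and they held 36.1% to 53.5% of the listed reads per library. Values below are treated to untreated ratios of reads scaled by TMM, a trimmed mean of log ratios that sets library sizes. Levels of a gene are given as scaled CPM, its reads per library size set this way, and are not compared between genes since no lengths were used, while ranges in parentheses after a fold are 95% intervals for counting error only. A gene is called higher or lower when it differed at least 1.5-fold, its interval excluded 1 and the libraries compared held at least 50 reads in sum, which all 68 genes passed. With 1 library per group a call compares these libraries and not the conditions, no p-value can be given, and in whole muscle fewer cells of a type and less RNA per cell cannot be told apart.

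In mRNA, most oxidative phosphorylation genes lay below the median listed gene in the treated library. Of the 68 genes, 29 were called lower and 6 higher, where 24.8% and 31.8% of all genes compared were called lower and higher. Their median log2 ratio lay 0.44 below that of all listed genes, and 49 of them were below it. The values ran from Atp5j, the coupling subunit of the ATP synthase stalk, at 6.34-fold lower (5.61 to 7.14), to Ndufa13, a membrane-arm subunit of complex I, at 2.74-fold higher (1.84 to 4.30). Summed over the 68 genes, the share of all listed mRNA reads was 4.92% (4.80 to 5.04) untreated and 2.08% (2.07 to 2.10) treated. The total also differed in make-up, as Ttn, the gene of the giant sarcomere protein titin, went from 8.67% to 26.5%. The number of calls moved with the scaling: with the constants the authors used for their normalized counts, 56 genes were lower and 0 higher. Those constants move every mRNA log2 ratio by −0.88 and every footprint log2 ratio by −0.27, so that with them an mRNA less than 1.84-fold higher with TMM, or footprints less than 1.21-fold higher, read as lower. With the 20 most abundant genes taken out of the total, the shares were 11.0% and 5.92%.

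The footprints of the same genes differed less. Of the 68 genes, 10 had lower and 7 higher footprints in treated muscle, against 26.2% lower and 19.9% higher among all genes compared. Their median log2 ratio was 0.05 relative to the median listed gene, and the sign of the unshifted median, 0.03 with TMM, turned to −0.25 with the authors' constants, which gave 18 lower and 2 higher calls. The share of listed footprints was 3.66% (3.64 to 3.68) in untreated and 3.50% (3.47 to 3.52) in treated muscle. The log2 ratios of the 68 genes had an SD of 0.89 in mRNA and 0.55 in footprints, where the median counting error of a ratio was 0.22 and 0.07. For the other listed genes the SDs were 1.26 and 0.93. Among the 34 oxidative phosphorylation genes with at least 50 untreated mRNA reads they were 0.82 and 0.57, so the wider mRNA spread was also present where counts were higher.

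**Figure D1:**
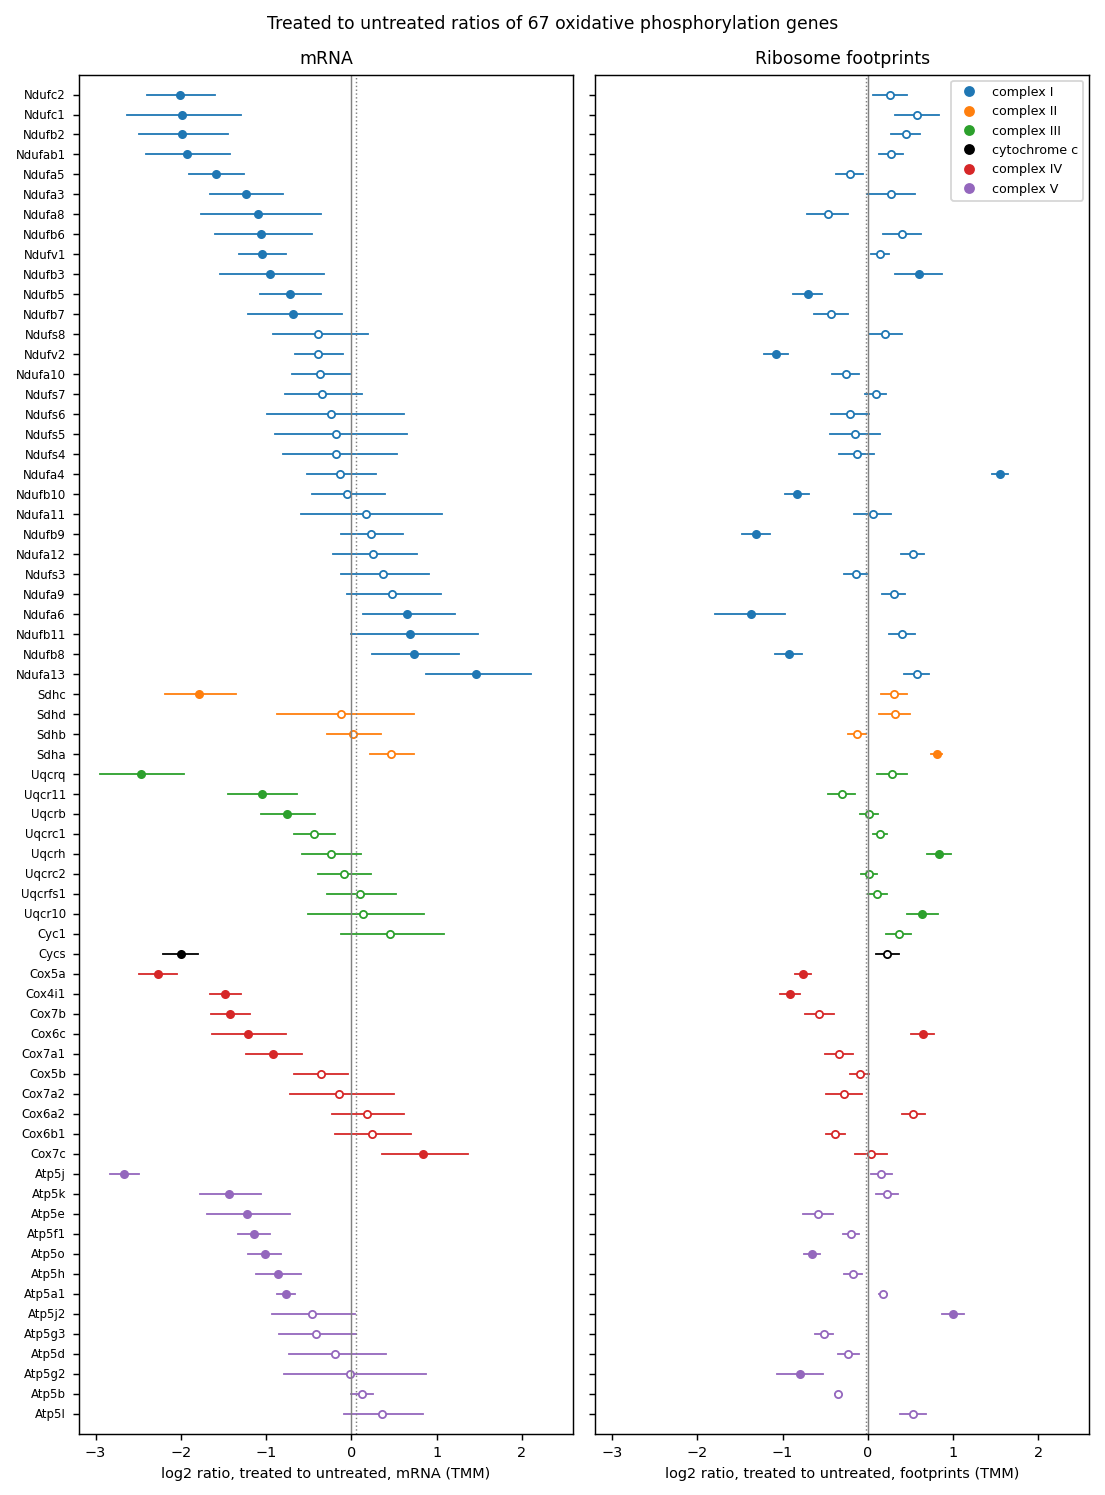
Treated to untreated log2 ratio of 67 of the 68 oxidative phosphorylation genes in mRNA (left) and footprints (right), grouped by complex and ordered by the mRNA ratio. Points are single-library ratios scaled by TMM, lines are 95% counting intervals, filled points are called genes, and the dotted line is the median of all listed genes. 29 filled points lie below 0 in mRNA and 10 in footprints.

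The genes low in mRNA were mostly not low in footprints. Among all genes compared 26.2% were called lower in footprints, and the share among all those called lower in mRNA was not counted. Of the 29 oxidative phosphorylation genes called lower in mRNA, 4 were also called lower in footprints, 23 were called neither way and 2 were called higher. The genes low in both were Cox4i1, Cox5a, Atp5o and Ndufb5. Those low in mRNA and high in footprints were Cox6c and Ndufb3. Of the 6 genes higher in mRNA with TMM, Ndufa6 and Ndufb8 were lower in footprints and 4 were called neither way. Across the 68 genes the mRNA and footprint log2 ratios had a Pearson coefficient of −0.02 and a Spearman coefficient of 0.01, and across 927 other listed genes these were 0.42 and 0.34. All points of each set share the same 4 libraries, and the coefficients are descriptions across genes.

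**Figure D2:**
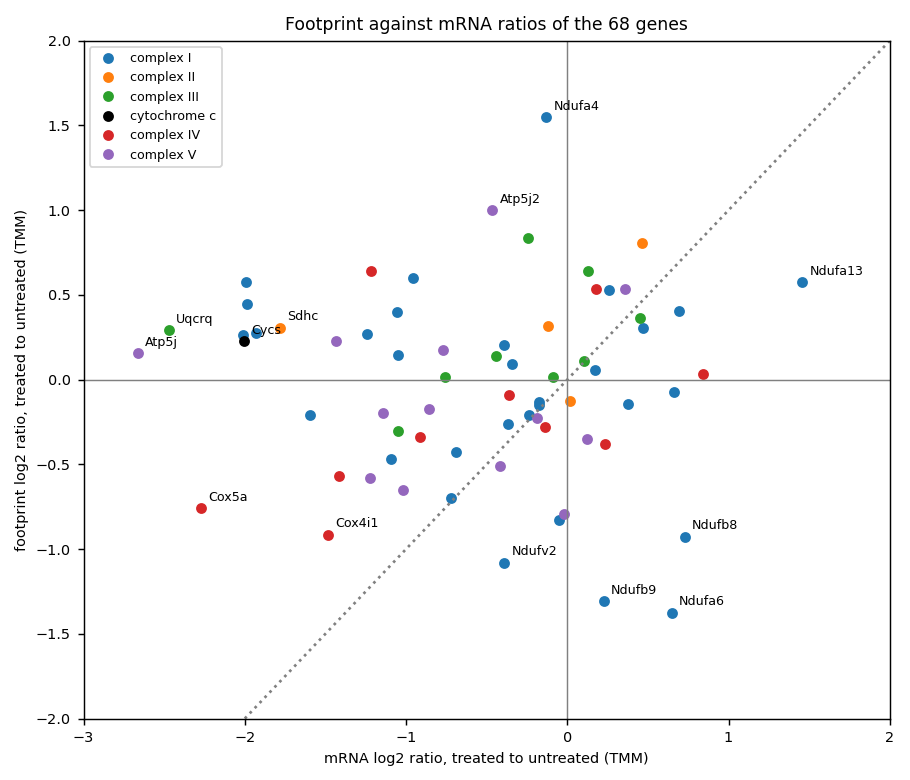
Footprint log2 ratio (vertical) against mRNA log2 ratio (horizontal), treated to untreated and scaled by TMM, with 1 point per gene coloured by complex. The dotted line marks equal ratios, and Atp5j, Uqcrq and Cycs lie far to the left of it while Ndufa6, Ndufb8 and Ndufb9 lie below it.

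Many respiratory chain promoters are known to bind NRF1, a nuclear respiratory factor whose site holds the half-site TGCGCA, which reads the same on both strands. Promoter windows of 300 bases, 250 before and 50 after the start, were matched for 57 of the 68 genes in RefSeq (GRCm38.p6). The letters TGCGCA were present in the windows of 16 of these 57 genes (28.1%), of 128 of 809 listed genes with a window (15.8%) and of 8.79% of all 27025 genes with a window, or in 7.76% of the 32851 windows, since a gene can have several. The second sequence searched, AAGGTCA on either strand, a half-site of the estrogen-related receptors, was present for 7 of 57 genes (12.3%), 5.19% of listed genes, 5.38% of all genes and 4.72% of the windows. The genes with TGCGCA had a median mRNA log2 ratio 0.21 below the median listed gene, and those without it 0.48 below. Among those without it 19 were lower and 3 higher in mRNA, where 24.8% of all genes compared were lower and 31.8% higher. Of the 16 with it, 4 were lower and 2 higher in mRNA. Of these, Ndufa5 and Ndufb6 were lower, Ndufa6 was higher with TMM but called neither way, with the sign turned, with the listed total or the authors' constants, and Sdha was called neither way, and their windows are shown because they hold the same half-site beside mRNA ratios that differ. The lines give 40 bases 5′ to 3′ on the strand of the gene, all before every start that RefSeq gives for the gene, with the half-site in capitals.
Ndufa5, chr6:24527695-24527734, minus strand: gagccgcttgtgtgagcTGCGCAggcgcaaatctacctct
Ndufb6, chr4:40279477-40279516, minus strand: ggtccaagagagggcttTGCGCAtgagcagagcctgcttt
Ndufa6, chr15:82354349-82354388, minus strand: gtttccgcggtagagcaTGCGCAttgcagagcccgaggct
Sdha, chr13:74350274-74350313, minus strand: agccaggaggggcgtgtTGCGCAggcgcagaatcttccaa
A match in these letters is a description and shows neither binding nor a cause of the ratio.

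With TMM, complex I genes called lower in treated mRNA lay mostly in its membrane arm. Of its 31 genes, 12 were lower and 5 higher in mRNA, and 6 were lower and 2 higher in footprints. Among all genes compared, 24.8% were lower and 31.8% higher in mRNA, and 26.2% lower and 19.9% higher in footprints. The peripheral arm, which reaches into the matrix and carries the redox chain, had 2 lower and 2 higher among 12 genes, and the accessory subunits of the membrane arm had 9 lower and 3 higher among 17. Relative to the median listed gene the medians of the arms were −0.27 and −0.75 in mRNA and −0.08 and 0.08 in footprints, and the difference between the arms was not tested. Ndufv2, Ndufs7 and Ndufs8 of the peripheral arm and Ndufa10 of the membrane arm were called neither way in mRNA with 2 of 6 scalings each. With the other scalings they were called lower, so the counts by arm depend on the scaling. Ndufab1, an acyl carrier protein found in both arms, and Ndufa4 are counted in neither arm.

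Of the core subunits of the peripheral arm, Ndufv1 was lower in mRNA and Ndufv2 was lower in footprints. Ndufv1 (NM_133666), which holds the flavin that oxidises NADH, had an mRNA level of 772 scaled CPM untreated and 373 treated (121 and 1259 reads), and a footprint level of 594 scaled CPM untreated and 658 treated (2024 and 1083 reads). The treated mRNA value was under the untreated value and the footprint values were close. Ndufv1 was 2.07-fold lower (1.70 to 2.50) in mRNA and 1.11-fold higher (1.03 to 1.19) in footprints. Its neighbour Ndufv2 (NM_028388), an iron-sulphur subunit, had 114 mRNA reads untreated and 1876 treated, with 2237 footprint reads untreated and 511 treated. Its mRNA was 1.31-fold lower (1.07 to 1.58), under the fold threshold, and its footprints were 2.11-fold lower (1.92 to 2.33) and called lower. The core genes Ndufs3, Ndufs7 and Ndufs8 of the ubiquinone module were called neither way in both with TMM. In mRNA, Ndufs7 and Ndufs8 were called neither way with 2 of 6 scalings each, and their log2 ratios reached −1.23 and −1.27. Ndufs3 was 1.30-fold higher (0.922 to 1.88) in mRNA and 1.10-fold lower (1.01 to 1.21) in footprints. Ndufs7 and Ndufs8, which carry iron-sulphur clusters, were 1.27-fold lower (0.915 to 1.72) and 1.31-fold lower (0.876 to 1.90) in mRNA and 1.07-fold higher (0.974 to 1.16) and 1.15-fold higher (1.01 to 1.32) in footprints.

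Ndufa6 (NM_025987), an accessory subunit that docks the acyl carrier onto the ubiquinone module, was the complex I gene lowest in footprints per mRNA. It had an mRNA level of 198 scaled CPM untreated and 309.7 treated (31 and 1046 reads), and a footprint level of 94.5 scaled CPM untreated and 36.5 treated (322 and 60 reads). The treated mRNA value was above the untreated value and the treated footprint value was below it. With TMM its mRNA was 1.57-fold higher (1.10 to 2.32) and turned in sign with the listed total and the authors' constants, and its footprints were 2.59-fold lower (1.96 to 3.47). Ndufa5 (NM_026614), another accessory subunit there, had 93 mRNA reads untreated and 664 treated, with 1114 footprint reads untreated and 466 treated, and was 3.02-fold lower (2.40 to 3.76) in mRNA and 1.15-fold lower (1.04 to 1.29) in footprints. Ndufa9 and the accessory subunits of the NADH-oxidising end, Ndufa12, Ndufs4 and Ndufs6, were called neither way in mRNA or footprints. Of these Ndufa12 had the highest footprints, at 1.44-fold higher (1.31 to 1.59), from 1077 untreated and 751 treated reads. Ndufs4, Ndufs6 and Ndufa9 were 1.09-fold lower (0.9496 to 1.26), 1.16-fold lower (0.990 to 1.35) and 1.24-fold higher (1.13 to 1.36) in footprints, and their untreated mRNA rests on 21, 15 and 30 reads.

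In the membrane arm the lowest mRNAs were those of Ndufc2, Ndufc1 and Ndufb2. Ndufc2 (NM_024220) had an mRNA level of 408 scaled CPM untreated and 101 treated (64 and 342 reads), and a footprint level of 168 scaled CPM untreated and 201 treated (571 and 331 reads). The treated mRNA value was under the untreated value and the footprint values were close. It was 4.03-fold lower (3.04 to 5.28) in mRNA and 1.20-fold higher (1.04 to 1.38) in footprints. Ndufb2 (NM_026612) had 38 mRNA reads untreated and 207 treated, with 740 footprint reads untreated and 487 treated, and was 3.96-fold lower (2.72 to 5.61) in mRNA and 1.36-fold higher (1.21 to 1.53) in footprints. Ndufc1 rests on 24 untreated and 130 treated mRNA reads and was 3.98-fold lower (2.46 to 6.19) in mRNA and 1.49-fold higher (1.24 to 1.79) in footprints. Ndufa3, Ndufa8, Ndufb3, Ndufb5, Ndufb6 and Ndufb7 were also called lower in mRNA, from 1.61-fold to 2.36-fold. Of these, Ndufb5 had 72 mRNA reads untreated and 942 treated, with 1259 footprint reads untreated and 374 treated, and was low in both layers, at 1.65-fold lower (1.28 to 2.10) and 1.63-fold lower (1.45 to 1.83). Ndufb3, with 26 mRNA reads untreated and 289 treated, with 257 footprint reads untreated and 188 treated, was 1.94-fold lower (1.25 to 2.90) in mRNA and 1.51-fold higher (1.25 to 1.83) in footprints, so the layers pointed opposite ways. The footprints of Ndufa3 and Ndufb6 were 1.21-fold higher (0.992 to 1.46) and 1.32-fold higher (1.13 to 1.54), and those of Ndufa8 and Ndufb7 1.38-fold lower (1.18 to 1.63) and 1.35-fold lower (1.18 to 1.54).

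Ndufb8, Ndufb9 and Ndufb10, also of the membrane arm, were low in footprints and not in mRNA. Ndufb9 (NM_023172), a distal subunit, had an mRNA level of 428 scaled CPM untreated and 500.3 treated (67 and 1690 reads), and a footprint level of 574 scaled CPM untreated and 232 treated (1954 and 381 reads). Its mRNA values were close, at 1.17-fold higher (0.916 to 1.52), and its footprints were 2.48-fold lower (2.22 to 2.77). Ndufb8, also distal, had 35 mRNA reads untreated and 1251 treated, with 1648 footprint reads untreated and 419 treated. It was 1.66-fold higher (1.19 to 2.39) in mRNA, turning in sign with the authors' constants, and 1.90-fold lower (1.71 to 2.12) in footprints. Ndufb10, also of the distal part, was 1.04-fold lower (0.762 to 1.38) in mRNA and 1.78-fold lower (1.61 to 1.97) in footprints. Ndufa13 (NM_023312), the highest complex I gene in mRNA, had 24 mRNA reads untreated and 1420 treated, with 916 footprint reads untreated and 660 treated, and was 2.74-fold higher (1.84 to 4.30) in mRNA, with footprints 1.49-fold higher (1.35 to 1.65), just under the threshold. Ndufb11 was 1.62-fold higher (1.00 to 2.79) in mRNA from 17 untreated reads, with a bound next to 1, and turned in sign with the authors' constants. Ndufa10, Ndufa11 and Ndufs5 were called neither way in both, with footprints 1.20-fold lower (1.07 to 1.34), 1.04-fold higher (0.894 to 1.21) and 1.11-fold lower (0.905 to 1.36).

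Ndufa4 and Ndufab1 had high footprints relative to their mRNA. Ndufa4 (NM_010886), named for complex I and later placed in complex IV, had an mRNA level of 345 scaled CPM untreated and 315 treated (54 and 1064 reads), and a footprint level of 435 scaled CPM untreated and 1275 treated (1483 and 2097 reads). Its mRNA values were close, at 1.09-fold lower (0.816 to 1.44), and its treated footprint value was the highest relative to untreated of the 68 genes, at 2.93-fold higher (2.74 to 3.13). Ndufab1 (NM_028177), the mitochondrial acyl carrier protein, had 43 mRNA reads untreated and 243 treated, with 1122 footprint reads untreated and 656 treated. It was 3.81-fold lower (2.69 to 5.29) in mRNA and 1.21-fold higher (1.10 to 1.33) in footprints. RefSeq names 1 pseudogene of Ndufab1, and its counts are uncertain, as reads may have been split between near-identical copies.

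Complex II, which is also an enzyme of the citrate cycle, had the highest footprint ratio of the complexes. Its reads in sum were 1.41-fold higher (1.37 to 1.46) in footprints and 1.03-fold higher (0.916 to 1.16) in mRNA. Sdha (NM_023281), the flavoprotein that oxidises succinate, had an mRNA level of 823 scaled CPM untreated and 1137 treated (129 and 3842 reads), and a footprint level of 1301 scaled CPM untreated and 2276 treated (4432 and 3745 reads). Both treated values were above the untreated values, the mRNA value not with every scaling. Sdha was 1.38-fold higher (1.16 to 1.66) in mRNA, under the fold threshold, and 1.75-fold higher (1.67 to 1.83) in footprints, and it held 3745 of the 5789 treated footprints of complex II. Sdhb, the iron-sulphur subunit, was 1.01-fold higher (0.819 to 1.27) in mRNA and 1.09-fold lower (1.02 to 1.17) in footprints. The membrane anchors differed from each other in mRNA. Sdhc (NM_025321), with 57 mRNA reads untreated and 357 treated, with 952 footprint reads untreated and 569 treated, was 3.44-fold lower (2.56 to 4.56), and Sdhd, from 15 untreated reads, 1.09-fold lower (0.602 to 1.83). Their footprint ratios were close, at 1.24-fold higher (1.11 to 1.37) for Sdhc and 1.25-fold higher (1.10 to 1.41) for Sdhd.

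In complex III the calls with TMM fell on small subunits, while with 4 of the 6 scalings the core gene Uqcrc1 was also called lower in mRNA. Cyc1, which encodes cytochrome c1, was 1.37-fold higher (0.918 to 2.12) in mRNA and 1.29-fold higher (1.16 to 1.42) in footprints. Uqcrfs1, the Rieske iron-sulphur protein, was 1.08-fold higher (0.819 to 1.44) in mRNA and 1.08-fold higher (0.999 to 1.16) in footprints. The core proteins Uqcrc1 and Uqcrc2 were 1.36-fold lower (1.15 to 1.60) and 1.07-fold lower (0.856 to 1.31) in mRNA and 1.10-fold higher (1.04 to 1.17) and 1.01-fold higher (0.944 to 1.08) in footprints, so 4 of 4 core genes were called neither way in mRNA and in footprints with TMM. In mRNA, Uqcrc1 was called neither way with 2 of 6 scalings and Uqcrc2 with 4 of 6, and their log2 ratios reached −1.32 and −0.97. Of the 5 small subunits, 3 were lower in mRNA and 2 higher in footprints, against 24.8% and 19.9% of all genes compared.

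Uqcrq (NM_025352), a small subunit near the ubiquinone site, had an mRNA level of 287 scaled CPM untreated and 51.8 treated (45 and 175 reads), and a footprint level of 212 scaled CPM untreated and 259.6 treated (723 and 427 reads). Its treated mRNA value was far under its untreated value while its footprint values were close: it was 5.54-fold lower (3.90 to 7.73) in mRNA and 1.22-fold higher (1.08 to 1.38) in footprints. Uqcr11 and Uqcrb were 2.07-fold lower (1.55 to 2.72) and 1.69-fold lower (1.35 to 2.09) in mRNA and 1.24-fold lower (1.10 to 1.39) and 1.01-fold higher (0.940 to 1.09) in footprints. Uqcrh, the hinge protein that helps cytochrome c dock, had 74 mRNA reads untreated and 1348 treated, with 937 footprint reads untreated and 807 treated. It was 1.18-fold lower (0.924 to 1.496) in mRNA and 1.78-fold higher (1.62 to 1.96) in footprints, and Uqcr10 1.09-fold higher (0.701 to 1.81) and 1.56-fold higher (1.37 to 1.77). RefSeq names 2 pseudogenes of Uqcrh.

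Cycs (NM_007808), the gene of cytochrome c itself, had an mRNA level of 1493 scaled CPM untreated and 372 treated (234 and 1257 reads), and a footprint level of 361 scaled CPM untreated and 423 treated (1230 and 696 reads). The untreated mRNA value stood above the treated value, and the footprint values were close. It was 4.01-fold lower (3.48 to 4.62) in mRNA and 1.17-fold higher (1.07 to 1.29) in footprints. RefSeq names 3 Cycs pseudogenes, so its read counts are uncertain in the way given for Ndufab1.

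With Ndufa4 counted in complex I by its name, complex IV had the lowest footprint ratio of the complexes. Its reads in sum were 1.25-fold lower (1.21 to 1.28) in footprints and 1.93-fold lower (1.81 to 2.06) in mRNA. This rank depends on that placement, as Ndufa4 had 1483 untreated and 2097 treated footprint reads beside 17114 and 6622 for complex IV. Of the 10 genes of complex IV, 5 were lower and 1 higher in mRNA, against 24.8% and 31.8% of all genes compared. Cox5a (NM_007747), a subunit on the matrix side, had an mRNA level of 1340 scaled CPM untreated and 277 treated (210 and 936 reads), and a footprint level of 1188 scaled CPM untreated and 701 treated (4047 and 1154 reads). Both treated values were under the untreated values, and it was 4.84-fold lower (4.14 to 5.62) in mRNA and 1.69-fold lower (1.59 to 1.81) in footprints. Cox4i1 (NM_009941), the broadly expressed form of a regulatory subunit, had 278 mRNA reads untreated and 2147 treated, with 2954 footprint reads untreated and 757 treated, and was 2.79-fold lower (2.45 to 3.16) in mRNA and 1.88-fold lower (1.74 to 2.04) in footprints, the lowest of complex IV. Cox7b was 2.67-fold lower (2.27 to 3.13) in mRNA and 1.48-fold lower (1.32 to 1.67) in footprints. Cox6c had 50 mRNA reads untreated and 464 treated, with 995 footprint reads untreated and 751 treated, and was 2.32-fold lower (1.70 to 3.11) in mRNA and 1.56-fold higher (1.42 to 1.72) in footprints. Cox7c had 35 mRNA reads untreated and 1352 treated, with 699 footprint reads untreated and 346 treated, and was 1.79-fold higher (1.28 to 2.58) in mRNA, a value that turned in sign with the authors' constants, and 1.02-fold higher (0.898 to 1.17) in footprints. Cox5b and Cox6b1 were called neither way in both, with footprints 1.07-fold lower (0.988 to 1.15) and 1.30-fold lower (1.20 to 1.41).

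Some complex IV subunits have a form for heart and skeletal muscle and a broadly expressed form. Of the pairs examined, both forms were listed for Cox7a. Cox7a1, the muscle form, held 77.3% (68.3 to 84.7) of the reads of the pair in untreated mRNA, 66.5% (64.0 to 68.9) in treated mRNA, 60.7% (58.3 to 63.0) in untreated footprints and 59.7% (55.9 to 63.4) in treated footprints. The intervals of the mRNA shares just overlap, and the treated to untreated ratio of Cox7a1 was 0.585 times that of Cox7a2 (0.369 to 0.925), a value that no scaling changes. In footprints this ratio was 0.959 (0.800 to 1.15). Cox7a1 was 1.89-fold lower (1.49 to 2.35) in mRNA and 1.26-fold lower (1.13 to 1.42) in footprints, and Cox7a2 1.10-fold lower (0.706 to 1.65) and 1.21-fold lower (1.05 to 1.40). Cox6a2, the muscle form of another subunit, was 1.13-fold higher (0.856 to 1.53) in mRNA and 1.45-fold higher (1.32 to 1.60) in footprints.

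Complex V held the most reads of the complexes, with a share of all listed mRNA reads of 2.06% (1.98 to 2.14) untreated and 0.805% (0.797 to 0.814) treated, and of listed footprints of 1.46% (1.45 to 1.48) untreated and 1.30% (1.28 to 1.31) treated. Of its 13 genes, 7 were lower and 0 higher in mRNA, against 24.8% and 31.8% of all genes compared. Their median log2 ratio was −0.83 relative to the median listed gene. Atp5b (NM_016774), the catalytic beta subunit, had an mRNA level of 3217 scaled CPM untreated and 3508 treated (504 and 11849 reads), and a footprint level of 5241 scaled CPM untreated and 4116 treated (17850 and 6772 reads), and its mRNA values were close, at 1.09-fold higher (0.997 to 1.19), with footprints 1.27-fold lower (1.24 to 1.31). Atp5a1 (NM_007505), the alpha subunit that stands beside it in the head, had an mRNA level of 5227 scaled CPM untreated and 3063 treated (819 and 10347 reads), and a footprint level of 3128 scaled CPM untreated and 3530 treated (10653 and 5807 reads). It differed from Atp5b in mRNA, at 1.71-fold lower (1.59 to 1.83), and its footprints were 1.13-fold higher (1.09 to 1.17). Of the small subunits of the central stalk, Atp5e was 2.33-fold lower (1.65 to 3.22) in mRNA and Atp5d 1.14-fold lower (0.757 to 1.66), with footprints 1.49-fold lower (1.32 to 1.69) and 1.17-fold lower (1.08 to 1.27).

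Each of the 4 genes of the peripheral stalk, which holds the head still against the turning rotor, was lower in treated mRNA. Atp5j (NM_016755) had an mRNA level of 2240 scaled CPM untreated and 353 treated (351 and 1194 reads), and a footprint level of 448 scaled CPM untreated and 499.6 treated (1525 and 822 reads). Its treated mRNA value was far under its untreated value and its footprint values were close, at 6.34-fold lower (5.61 to 7.14) in mRNA and 1.12-fold higher (1.02 to 1.22) in footprints. Atp5j lies beside and overlaps Gabpa in RefSeq, and, although a stranded kit was used for the RNA-Seq libraries per the labels, the counting's strand setting was not given in the sources used here. In all 20 of the 68 genes overlap another gene in RefSeq and 10 have named pseudogenes. Atp5f1 was 2.21-fold lower (1.94 to 2.52) in mRNA, Atp5o 2.03-fold lower (1.77 to 2.31) and Atp5h 1.81-fold lower (1.502 to 2.17). In footprints Atp5o was 1.57-fold lower (1.47 to 1.68), while Atp5f1 and Atp5h, at 1.15-fold lower (1.08 to 1.22) and 1.13-fold lower (1.05 to 1.21), were called neither way.

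The rotor ring of complex V is built from subunit c, of which Atp5g3 and Atp5g2 were listed. Atp5g3 held 76.3% (63.4 to 86.4) of the reads of this pair in untreated mRNA, 70.9% (68.01 to 73.7) in treated mRNA, 84.0% (82.7 to 85.2) in untreated footprints and 86.5% (84.3 to 88.4) in treated footprints, and the intervals of the mRNA shares overlap. The treated to untreated ratio of Atp5g3 was 0.758 times that of Atp5g2 in mRNA (0.410 to 1.40) and 1.22 times in footprints (1.00 to 1.48). Atp5g2 was 1.01-fold lower (0.547 to 1.73) in mRNA, from 14 untreated reads, and 1.73-fold lower (1.44 to 2.09) in footprints. Atp5g3 was 1.34-fold lower (0.966 to 1.81) and 1.42-fold lower (1.32 to 1.53). Among the small membrane subunits, Atp5j2 (NM_020582) had 39 mRNA reads untreated and 609 treated, with 1030 footprint reads untreated and 994 treated, and was 1.38-fold lower (0.972 to 1.91) in mRNA and 1.998-fold higher (1.83 to 2.18) in footprints, the highest of complex V. Atp5k was 2.70-fold lower (2.09 to 3.44) in mRNA and 1.17-fold higher (1.07 to 1.28) in footprints, and RefSeq names 4 Atp5k pseudogenes. Atp5l was 1.28-fold higher (0.938 to 1.79) in mRNA and 1.45-fold higher (1.30 to 1.61) in footprints.

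**Figure D3:**
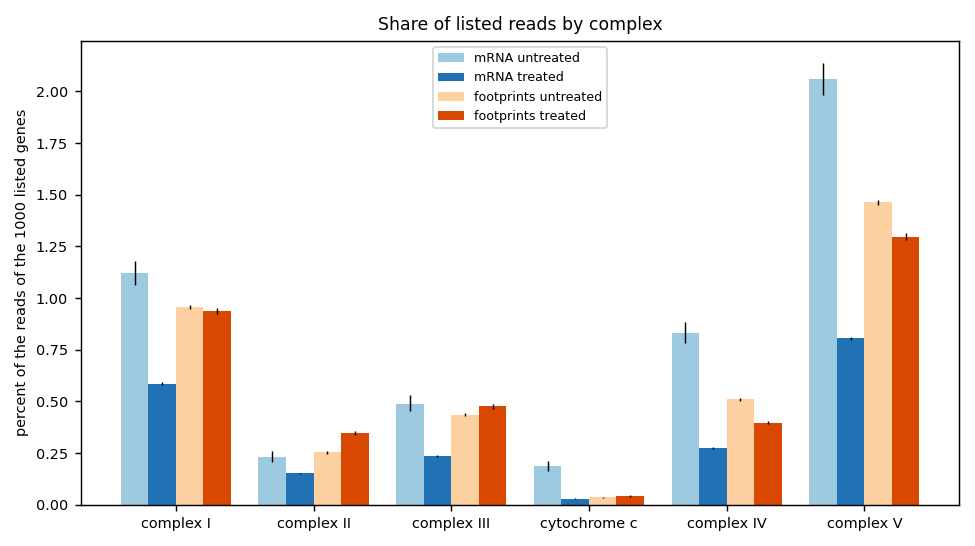
Share of the reads of the 1000 listed genes held by each complex in each library, in percent, with exact binomial 95% intervals for counting error. Complex V held 2.06% of untreated and 0.805% of treated mRNA reads, against 1.46% of untreated and 1.30% of treated footprints.

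Core subunits of complexes I, II, III and V can be set beside the other genes, which hold all 10 genes of complex IV, whose catalytic subunits are encoded in mitochondrial DNA. Of 16 core or catalytic genes, 3 were lower and 1 higher in mRNA with TMM. Their median was −0.20 relative to the median listed gene. Of the 52 other genes, 26 were lower and 5 higher, with a median of −0.64. Among all genes compared, 24.8% were lower and 31.8% higher. The counts depend on the scaling, as the core genes Ndufv2, Ndufs7, Ndufs8 and Uqcrc1 were called neither way with 2 of 6 scalings each. They were called lower with the other scalings. The same held for Cox5b, Ndufa10, Atp5g3 and Atp5j2 of the other genes. In footprints the medians were 0.07 and 0.05. The SD of the mRNA log2 ratios was 0.54 for the core genes and 0.95 for the rest. This difference was not tested, and transcript lengths were not used here.

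Footprints per mRNA compare the layers of each gene, as its footprint ratio over its mRNA ratio, and most calls were on the higher side in treated muscle. Of the 68 genes, 28 were called higher and 9 lower, against 26.0% higher and 31.9% lower among all genes compared, and their median log2 value lay 0.52 above the median listed gene. With the authors' constants 47 were higher and 3 lower. Among the 9 lower genes were Ndufa6, Ndufb8, Ndufb9, Ndufb10, Ndufa13, Ndufv2, Cox6b1 and Cox7c, and 7 were named for complex I and 0 belonged to complexes II, III or V. The highest were Atp5j at 7.08-fold higher (6.12 to 8.19), Uqcrq at 6.84-fold higher (4.83 to 9.68), Ndufc1 at 6.04-fold higher (3.79 to 9.62) and Ndufb2 at 5.45-fold higher (3.79 to 7.83). Ndufa6 was the lowest, at 3.97-fold lower (2.53 to 6.21), before Ndufb8 at 3.10-fold lower (2.19 to 4.41) and Ndufb9 at 2.88-fold lower (2.20 to 3.75). In the other complexes the highest were Sdhc at 4.29-fold higher (3.19 to 5.78), Cox6c at 3.66-fold higher (2.70 to 4.97) and Cycs at 4.71-fold higher (3.98 to 5.57), and the lowest of complex IV was Cox7c at 1.72-fold lower (1.21 to 2.46). In complex V, Atp5b at 1.39-fold lower (1.26 to 1.52) had the interval farthest below 1 and was under the fold threshold, and Atp5g2, at 1.65-fold lower (0.946 to 2.88), had a lower ratio and an interval that reached past 1. This measure holds the mRNA ratio in its denominator, so where footprints were close a high value restates a low mRNA ratio.

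Within each condition, footprints per mRNA were set against the median listed gene, which removes the scaling. In untreated muscle 21 of the 68 genes lay with their whole interval above the median gene and 21 below, against 25.7% and 28.5% of all listed genes, and their median was 0.08 on the log2 scale. In treated muscle 50 lay above and 13 below, against 43.1% and 42.7%, with a median of 0.55. All 9 complex III genes and all 4 complex II genes were above in treated muscle. Atp5j went from −2.32 (−2.49 to −2.16) in untreated to 0.51 (0.38 to 0.64) in treated muscle. Cycs went from −2.05 (−2.25 to −1.85) to 0.20 (0.06 to 0.33). Both stood far below the median gene in untreated muscle and slightly above it in treated muscle. Ndufa6 lay below it in both, at −1.09 (−1.61 to −0.56) and −3.06 (−3.44 to −2.69). Atp5d, a central stalk subunit, lay above it by the same amount in both, at 1.62 (1.10 to 2.15) and 1.62 (1.47 to 1.78).

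**Figure D4:**
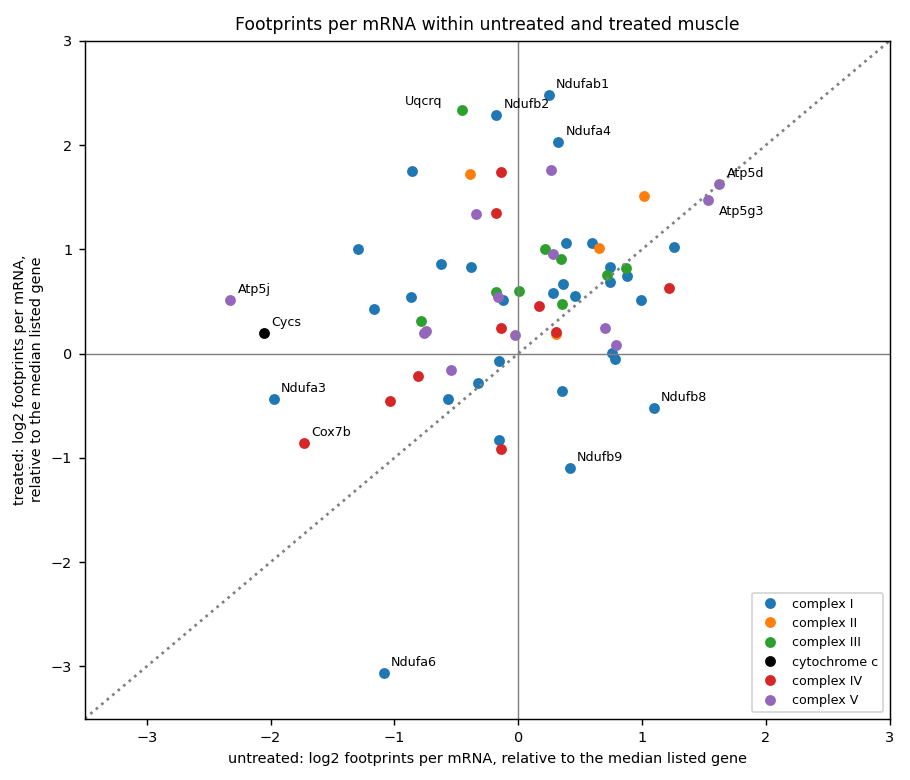
Log2 footprints per mRNA in treated muscle (vertical) against untreated muscle (horizontal), each relative to the median listed gene of that condition, with 1 point per gene coloured by complex. The dotted line marks equal values. Atp5j and Cycs are at the left edge and above the line, and Ndufa6 is at the bottom.

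Other lists of mitochondrial energy supply were shorter, and the values that follow are with TMM. Of all genes compared, 24.8% were called lower and 31.8% higher in mRNA, and 26.2% lower and 19.9% higher in footprints. In footprints per mRNA these shares were 31.9% and 26.0%. Differences between the lists were not tested. Among 9 genes that move ATP, phosphate and creatine phosphate, the calls were 2 lower and 3 higher in mRNA and 4 lower and 0 higher in footprints. Slc25a4, the muscle ADP/ATP carrier, was 1.82-fold higher (1.61 to 2.06) in mRNA and 1.58-fold lower (1.52 to 1.64) in footprints, while its relative Slc25a5 was 7.81-fold lower (5.35 to 11.2) and 1.57-fold lower (1.29 to 1.92). Slc25a3, the phosphate carrier, was 1.18-fold lower (0.975 to 1.42) in mRNA and 1.77-fold lower (1.65 to 1.90) in footprints, and Vdac1, the outer membrane pore, 1.71-fold higher (1.44 to 2.06) and 1.10-fold higher (1.05 to 1.15). Of 16 citrate cycle genes 3 lower and 3 higher were called in mRNA, and Cs, the citrate synthase gene often used as a measure of mitochondrial content, was 1.02-fold higher (0.842 to 1.26) in mRNA and 1.03-fold higher (0.974 to 1.10) in footprints. Idh2, an isocitrate dehydrogenase, was 1.76-fold higher (1.11 to 2.99) in mRNA. Of 14 fatty acid oxidation genes 4 lower and 1 higher were called in mRNA and 0 lower and 3 higher in footprints, and the medians of the 68 oxidative phosphorylation genes and of this list were −0.44 and −0.44 in mRNA relative to the median listed gene. In footprints the median of the fatty acid oxidation genes lay 0.26 above the median listed gene, and that of the oxidative phosphorylation genes was near it, at 0.05. In footprints per mRNA 9 fatty acid oxidation genes were called higher and 0 lower, with the median 0.79 above. Beside this, oxidative phosphorylation had 28 higher and 9 lower of 68 and a median 0.52 above. For the citrate cycle these calls were 5 higher and 2 lower, and for ATP, phosphate and creatine transfer 2 higher and 4 lower. Of 9 other partners, which pass electrons into the chain or help in its assembly, 2 lower and 4 higher were called in mRNA and 2 lower and 3 higher in footprints, and Etfa and Etfb, the subunits of the electron transfer flavoprotein, were 1.04-fold higher (0.714 to 1.58) and 2.04-fold lower (1.45 to 2.79) in mRNA. Of the lists of genes encoded in mitochondrial DNA and of regulators of mitochondrial biogenesis none matched a listed gene, so they were not analysed here.

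The 66 cytosolic ribosomal protein genes, another set of abundant housekeeping subunits, lay on the other side of the median listed gene in mRNA. In footprints most of them lay below it, while 36 oxidative phosphorylation genes lay above it and 32 below. Their median lay 0.31 above the median listed gene in mRNA and 0.93 below it in footprints, where the oxidative phosphorylation genes lay 0.44 below and 0.05 above. In footprints per mRNA the calls were 48 lower and 5 higher among the ribosomal protein genes and 9 lower and 28 higher among the oxidative phosphorylation genes. The difference between these sets is a description of these libraries.

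Other cell types and fibre types also differed between the libraries. The 13 listed fibroblast and matrix markers of 16 held 2.54% of the mRNA reads untreated and 0.394% treated, and 3.50% of the footprints untreated and 0.757% treated. The 7 listed macrophage markers of 18 held 0.269% of the mRNA reads untreated and 0.0915% treated, and 0.379% of the footprints untreated and 0.222% treated. Of 12 slow and oxidative fibre markers 7 were listed, with 4.57% of the mRNA reads untreated and 2.97% treated, and 5.93% of the footprints untreated and 5.54% treated, and of 13 fast glycolytic markers 11, with 25.2% of the mRNA reads untreated and 20.3% treated, and 26.4% of the footprints untreated and 28.8% treated. The mRNA shares also hold the difference in Ttn, from 8.67% to 26.5% of the reads. With TMM, 5 of the 11 fast markers were called higher and 0 lower in mRNA, with a median 0.51 above the median listed gene. Their footprint calls were 3 higher and 2 lower. Of the 6 slow markers with enough mRNA reads, Tnnt1, Casq2 and Tpm3 were called lower and Myh7 higher. The slow median lay 1.19 below the median listed gene in mRNA and 0.20 below it in footprints. Myh7, the slow myosin heavy chain, was 4.07-fold higher (3.36 to 4.98) in mRNA and 1.10-fold lower (1.07 to 1.12) in footprints, and Tnnt1, the slow troponin T, 42.0-fold lower (23.5 to 77.3) and 14.3-fold lower (9.25 to 23.2). Mb, which encodes the oxygen store myoglobin, was 1.33-fold higher (1.11 to 1.61) in mRNA and 2.23-fold higher (2.13 to 2.34) in footprints, and Myh2, the myosin of fast oxidative fibres, 1.01-fold lower (0.984 to 1.04) and 1.05-fold lower (1.04 to 1.06). Of the endothelial and smooth muscle markers Acta2 was listed, of the adipocyte markers Fabp4 and Car3, which muscle fibres also express, and of the red blood cell and Schwann cell markers none matched. The part of cell and fibre types in the oxidative phosphorylation ratios was not tested.

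Scalings differ in how firmly single calls hold. The median log2 mRNA ratio of all listed genes was 0.06 with TMM and −0.82 with the authors' constants, and that of the oxidative phosphorylation genes was −0.38 and −1.26, below 0 with each of 6 scalings. Against TMM, the 5 other scalings shifted every mRNA log2 ratio by −0.02 to −0.88. The 29 genes called lower in mRNA with TMM therefore could not lose that call. Of the 33 genes called neither way 6 stayed so, as the number called lower ran from 29 to 56. None of the 6 higher mRNA calls held with all 6 scalings. Ndufa13 missed the fold threshold with the authors' constants. Ndufb8, Ndufb11, Ndufa6 and Cox7c lost their calls with at least 4 of the 5 other scalings or turned in sign. Of the called genes, 17.1% were higher in mRNA with TMM, and from 2.08% to 14.7% with 4 other scalings, with no higher call under the authors' constants. In footprints, 9 of 10 lower calls held with all 6 scalings, Atp5o being the exception, as did the higher calls of Ndufa4 and Atp5j2 and 38 of 51 calls of neither way. Among called genes the higher share in footprints was 41.2% with TMM and ran from 10% to 57.1%. In footprints per mRNA the 5 other scalings shifted every log2 value by 0.03 to 0.61, so the 28 higher calls with TMM could not be lost. Of the lower calls those of Ndufa6, Ndufb8 and Ndufb9 held, as did 12 of 31 calls of neither way. The higher share went from 75.7% with TMM to 94.0%.

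**Figure D5:**
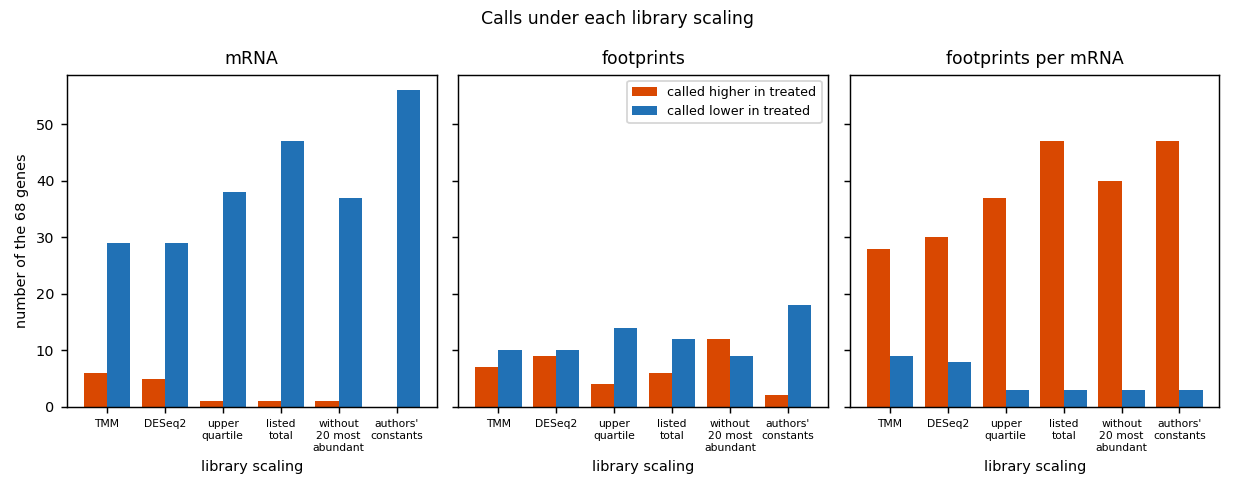
Number of the 68 genes called higher (orange) and lower (blue) in treated muscle under 6 library scalings, for mRNA, footprints and footprints per mRNA. The lower mRNA calls number 29 with TMM and 56 with the authors' constants, and the higher calls in footprints per mRNA 28 and 47.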

How the data were processed

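Frozen tibialis anterior was analysed as 4 libraries, 1 library per group, with 50-base reads. The authors deposited, per the file headers, read counts and CPM-type normalized counts for 1000 genes. The deposited CPM values equal the counts times a constant per library within 0.1 for 100% of genes, and those constants served as an alternative scaling only. Trimmomatic, STAR, edgeR and mm9 are named, without versions or roles, in the submitters' processing notes, which name no counting tool; it was not given in the sources used here. Counts in untreated mRNA fall from the first row to the last.

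Counts were scaled by TMM (edgeR 4.0.16, R 4.3.3). Ratios in mRNA and footprints have exact conditional binomial 95% intervals, shares have exact binomial (Clopper-Pearson) intervals, and footprints per mRNA have normal intervals on the log scale after 0.5 was added to each count. Reads carry no molecular identifiers, so intervals cover counting error only. Calls need 1.5-fold, an interval that excludes 1 and 50 summed reads. The script was tested on simulated data. DESeq2 1.42.0 size factors, 4 other scalings, read minimums of 0 and 200, a 2-fold threshold, 5 added to each count and the members without Ndufa4 were the alternatives. A comparison with length was not run, as no length table was used here.

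The 68 genes and all lists were chosen with earlier results of these data known. Named with values were, by rule, the genes lowest and highest in each complex and measure by the interval bound nearest 1, all core or catalytic genes, isoform pairs and up to 4 genes of each other list in list order. Results of 2 genes that the rule named are not reported here. Further members are named with values, and these were chosen after their values were seen. Gene names and promoters come from RefSeq, where all 68 identifiers matched.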

Additional observations from a re-analysis of the deposited data

How the results depend on the processing

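No paired analysis was possible because each group had 1 library. With DESeq2 size factors, no minimum of reads, a minimum of 200 reads or without Ndufa4, every count of called genes stayed within 1.5 times its value with TMM and no called gene turned in sign. The same held with 5 added to each count, which was run for footprints per mRNA only. Genes called higher in mRNA numbered 1 with upper quartile scaling, the listed total, the total without the 20 most abundant genes and a 2-fold threshold, and 0 with the authors' constants. Genes called lower in mRNA numbered 47 with the listed total and 56 with the authors' constants. The median log2 mRNA ratio of the 68 genes was −1.03 and −1.26 under these. Genes called higher in footprints numbered 4 with upper quartile, 12 without the 20 most abundant genes, 2 with the authors' constants and 1 at 2-fold, and lower ones 18 with the authors' constants and 3 at 2-fold. The footprint median was −0.25 with the authors' constants. Genes called higher in footprints per mRNA numbered 47 with the listed total and with the authors' constants, where the median was 1.02 under both. Lower ones numbered 3 with upper quartile, listed total, without the 20 most abundant genes, the authors' constants and at 2-fold. Of called genes, Ndufa6 turned to −0.00787 (log2) in mRNA with the listed total. With the authors' constants mRNA was −0.0404 for Cox7c, −0.15 for Ndufb8, −0.24 for Ndufa6 and −0.19 for Ndufb11. Cox6b1 in footprints per mRNA was 0.0116 with the listed total and 0.00845 with the authors' constants. A scaling moves all genes by the same amount, so it cannot move the medians of each complex relative to the median listed gene. These medians moved by less than the counting error under each other alternative run for them. That leaves out the 2-fold threshold and, for mRNA and footprints, 5 added to each count. The planned comparison with protein length was not run. Depth limits the mRNA values most: the least read of the 68 genes had 14 reads in untreated mRNA, and differences under 1.5-fold are often within the counting interval there. The spread between animals is unknown for every value.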
